A study of Mus musculus with 6 samples.

Results

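Genes of the actin cytoskeleton, together with the pleckstrin gene Plek, were examined in CD8 T cells that carry the transgenic AI4 antigen receptor and had been sorted from mouse pancreas. The set holds 45 genes chosen by name, and 42 of them had a probe that the platform annotation assigns to a single gene symbol, out of 19929 genes with such a probe. No single-symbol probe was found for Actg1, Arpc3 or Actr2, and their levels were not analysed here. The first group came from Rip-B7xAI4 mice, which carry the AI4 receptor and the Rip-B7x transgene and stayed resistant to type 1 diabetes. The second came from AI4 mice, which carry the receptor without that transgene and developed the disease. Both were on the C57BL/6.H2g7/g7 background, and no ages of the mice are given in these sources. In Rip-B7x the rat insulin promoter drives the inhibitory ligand B7x, which limits the transgene to cells that use this promoter, mainly beta cells, and disease state and transgene cannot be told apart here. There were 3 biological replicates per genotype, each on its own array, and sorted cells came from pancreata that had been pooled.

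Actin exists as free monomers and as filaments, and T cells rebuild their filaments continuously when they migrate, spread on a target cell and form the immune synapse. Monomers are held ready by profilin and thymosin, branched filaments are started by the Arp2/3 complex under proteins of the WASP and WAVE families, and filament ends are capped or extended by further proteins. Small GTPases and their exchange factors switch these steps on, and myosins pull on the filaments. Pleckstrin is not an actin subunit; it is a major substrate of protein kinase C in platelets and leukocytes, carries a pair of pleckstrin homology domains and takes part in cytoskeletal rearrangement.

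The DNA just upstream of the genes with the 5 smallest p-values is shown because one of them, Plek, stood far apart from the rest and another, Evl, had the opposite direction. Each line gives the 250 bases before the transcript start, 5′ to 3′, from RefSeq (GRCm38.p6), with the ETS core GAGGAA and its reverse complement in capitals.
Plek (chr11:17008719-17008968, minus strand): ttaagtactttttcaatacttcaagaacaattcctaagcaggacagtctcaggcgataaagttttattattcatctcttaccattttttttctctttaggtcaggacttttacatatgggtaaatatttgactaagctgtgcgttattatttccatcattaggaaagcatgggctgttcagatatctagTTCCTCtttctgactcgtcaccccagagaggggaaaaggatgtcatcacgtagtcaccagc
Vim (chr2:13574061-13574310, plus strand): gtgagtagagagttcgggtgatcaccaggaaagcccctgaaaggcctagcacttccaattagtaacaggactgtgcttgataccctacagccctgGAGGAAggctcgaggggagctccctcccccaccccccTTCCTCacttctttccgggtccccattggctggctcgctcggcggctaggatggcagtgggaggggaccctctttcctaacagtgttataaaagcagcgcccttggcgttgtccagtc
Capg (chr6:72549397-72549646, plus strand): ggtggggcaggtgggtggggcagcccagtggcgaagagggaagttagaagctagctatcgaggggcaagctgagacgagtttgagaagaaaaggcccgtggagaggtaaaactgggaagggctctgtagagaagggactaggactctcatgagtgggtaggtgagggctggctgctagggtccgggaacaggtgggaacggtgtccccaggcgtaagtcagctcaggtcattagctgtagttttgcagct
Myo1f (chr17:33555457-33555706, plus strand): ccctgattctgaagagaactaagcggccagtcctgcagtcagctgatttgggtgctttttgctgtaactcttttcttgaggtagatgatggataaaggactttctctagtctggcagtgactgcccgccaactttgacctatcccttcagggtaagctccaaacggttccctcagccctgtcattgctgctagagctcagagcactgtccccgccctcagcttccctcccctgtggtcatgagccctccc
Evl (chr12:108554470-108554719, plus strand): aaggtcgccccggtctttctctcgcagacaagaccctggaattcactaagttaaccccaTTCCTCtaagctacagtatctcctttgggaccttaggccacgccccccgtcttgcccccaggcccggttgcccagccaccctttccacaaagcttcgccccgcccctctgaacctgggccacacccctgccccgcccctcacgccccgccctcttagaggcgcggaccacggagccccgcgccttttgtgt
Both strands of the upstream windows were searched for 4 motifs, namely GAGGAA, which factors of the PU.1 type bind, the AP-1 site TGANTCA, the T-box site AGGTGTGA and the CArG box of serum response factor. No match of one overlapped a match of another in the 5 windows shown, where GAGGAA alone was found. It occurred 61 bases upstream of the Plek start, 155 and 118 bases upstream of the Vim start and 191 bases upstream of the Evl start, and not in the windows of Capg and Myo1f. Evl also has a second start with a window that held none of the motifs, and it is not shown. The table held 50 windows of 40 of the 45 genes, and 18% of these windows held GAGGAA, against 23.3% of all 32851 windows of that length. The CArG box stood upstream of Actg1, Arpc4, Myl6 and Vcl, in 8% of the windows of the set and in 1.47% of all windows. AP-1 sites were found upstream of Actn4 and Ezr, in 4% of the windows of the set and 6.75% of all windows, and the T-box site in 0 of them and 1.12% of all windows. These matches describe letters only.

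Log2 expression was used as the authors deposited it. The 6 arrays had medians between 5.94 and 6.10 over all probes, and their interquartile ranges lay between 1.81 and 2.13 in Rip-B7xAI4 and between 1.71 and 1.95 in AI4. The mean over 9 markers of CD8 T cells lay between 10.07 and 10.62 in Rip-B7xAI4 and between 10.02 and 10.59 in AI4, and T cell genes were thus well expressed on every array. The markers did not go one way: Cd8b1 differed by -1.0 (unadjusted p = 0.0387 in limma) and Cd8a by -0.69, the genes of the antigen used in the sort, while Cd3e differed by 0.88 with separate groups. Myeloid genes went apart within a group. Their mean over 17 markers was 9.17, 6.22 and 8.85 on Rip-B7xAI4 replicates 1, 2 and 3, against 6.66, 6.05 and 6.46 on the AI4 arrays. All 17 had a positive difference, with a median of 1.55, and the mean of Rip-B7xAI4 replicate 2 lay within the AI4 range. Its single markers went both ways. Cd68 at 7.35 and Fcer1g at 6.67 lay above all AI4 arrays (at most 6.49 and 6.21), while Csf1r at 5.49 and Fcgr3 at 5.64 lay below them. Neutrophil markers followed a similar pattern, with means of 8.0, 5.92 and 7.77 in Rip-B7xAI4 and 5.84, 5.59 and 5.67 in AI4. Here replicate 2 lay just above every AI4 array. Since actin genes and Plek are also expressed by myeloid cells, the main results below are set beside the difference of Rip-B7xAI4 replicate 2 alone from the AI4 arrays. That array is 1 of the 3 behind the main results, so the 2 are not independent. For a gene with separate groups, the sign of its difference on replicate 2 is fixed in advance, and only the size can vary. Markers of B cells averaged 5.68 to 6.63 in Rip-B7xAI4 and 5.69 to 6.22 in AI4, and those of beta cells 4.99 to 5.31 in Rip-B7xAI4 and 5.18 to 5.36 in AI4. Acinar markers averaged 5.88 to 6.13 in Rip-B7xAI4 and 6.04 to 6.09 in AI4, and endothelial and stromal markers 5.77 to 6.18 in Rip-B7xAI4 and 6.25 to 6.40 in AI4. In pooled RNA such as this, fewer cells of a type and less RNA per cell cannot be told apart.

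Plek was the member that differed by far the most. Its log2 level was 10.65, 10.26 and 10.39 in Rip-B7xAI4, against 6.49, 5.88 and 7.36 in AI4. The group means were 10.44 ± 0.20 in Rip-B7xAI4 and 6.58 ± 0.74 in AI4 (SD, n = 3 each), and the lowest Rip-B7xAI4 array was 2.90 above the highest AI4 array. Plek therefore differed by 3.86 ± 0.37 (SE) on the log2 scale. Its adjusted p = 0.145 in limma over all 13950 genes tested did not pass the limit of 0.05. It passed when arrays were weighted by how closely each followed its group in these same data. The difference was then 4.10, with an adjusted p = 0.0373 in limma. With these weights 38 of all genes passed, against 1 in the main fit. Under the other alternatives the adjusted p of Plek in limma was 0.0603 or more. Rip-B7xAI4 replicate 2, the array with low myeloid markers, had the lowest Plek level of its group, and taken alone it differed from the AI4 arrays by 3.69. With the myeloid mean as a covariate the difference was 3.61 ± 0.52 (SE). Platelets are rich in pleckstrin, and the mean of 6 platelet markers was 6.63, 5.68 and 6.29 in Rip-B7xAI4, against 6.41, 5.97 and 5.89 in AI4. Of the 5 that were tested, Pf4 had a positive difference and the other 4 a negative one. Pf4 was at 9.37, 4.20 and 5.61 in Rip-B7xAI4, against 6.44, 4.59 and 4.59 in AI4. The part of myeloid or platelet RNA in the Plek level was not tested. The paralogue Plek2 was too dim to be tested, at 4.74, 4.79 and 4.91 in Rip-B7xAI4 and 4.90, 4.92 and 5.02 in AI4.

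**Figure D1:**
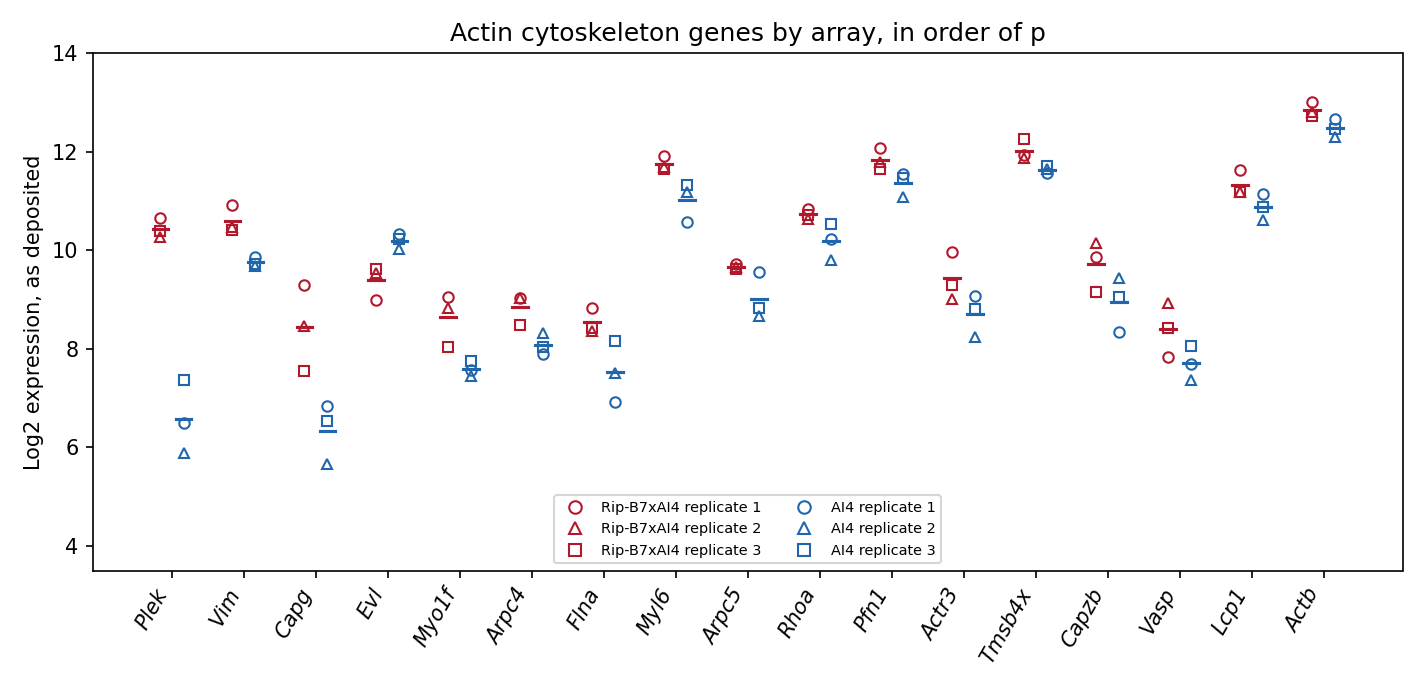
Log2 expression (vertical axis) of Plek, Actb and the 15 further members with the smallest p, in order of p from left to right. Red marks are the 3 Rip-B7xAI4 arrays, blue marks the 3 AI4 arrays, symbols the replicate numbers and short lines the group means. Plek has a gap of 2.90 between the groups, the others have gaps under 1 or overlap, and Evl alone lies lower in Rip-B7xAI4.

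Across the set the differences were small and mostly positive. Of the 42 genes tested, 36 (85.7%) had a positive and 6 a negative difference, where 39.0% of all genes tested and 63.8% of the brightest 25% had a positive one. After quantile normalization 29 members were positive and 13 negative, where 37.7% of all genes and 1622 of the 3488 genes in the brightest 25% were positive. The median of the members was 0.38 on the log2 scale, against -0.10 over all genes tested. By limma 0 members passed an adjusted p of 0.05, where 0.00717% of all genes did. At an unadjusted p under 0.05, 9 members were higher in Rip-B7xAI4, which is 21.4%, against 5.56% of all genes, and 1 was lower, against 3.17%. The groups were separate, with the lowest Rip-B7xAI4 array above the highest AI4 array, for 15 members, which is 35.7%, against 5.99% of all genes. They were separate the other way for 1 member, which is 2.38%, against 11.9% of all genes. These counts describe a set whose genes were picked with earlier results known, and no test was made of the set.

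Part of this shift was shared by other bright genes. Of the 42 members, 38 belonged to the brightest 25% of the genes tested, and these 38 had a median difference of 0.38, against 0.17 over all genes there. In this brightest 25%, groups were separate for 13.0% of genes with Rip-B7xAI4 higher and for 4.67% with Rip-B7xAI4 lower, and 12.1% were higher at an unadjusted p under 0.05. Quantile normalization, which evens out the spread of the arrays, lowered the median of the members to 0.17 and that of the brightest 25% to -0.04. The count of members with separate groups went down to 8, against 5.19% of all genes and 8.17% of the brightest 25% on that scale. These 8 were Plek, Tmsb4x, Arpc4, Capg, Flna, Myl6, Myo1f and Vim, and Evl stayed below. At an unadjusted p under 0.05, 7 members were higher after quantile normalization, against 4.44% of all genes and 255 of the 3488 genes in the brightest 25%.

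**Figure D2:**
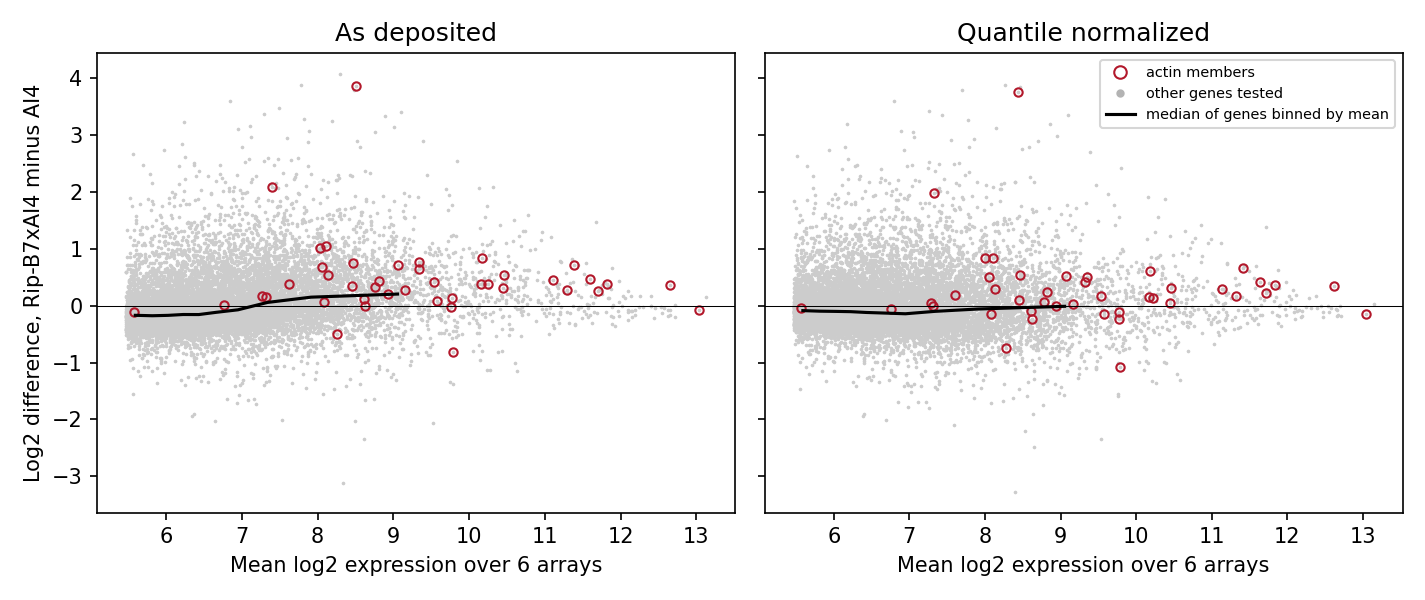
Log2 difference, Rip-B7xAI4 minus AI4 (vertical axis), against mean log2 expression over the 6 arrays (horizontal axis) for all 13950 genes tested, as deposited on the left and quantile normalized on the right. Red circles are the members, grey points other genes and the black line the median of genes binned by mean. As deposited the median over the brightest 25% is 0.17 and after quantile normalization it is -0.04, while Plek and Capg stand out on both sides.

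Members were also counted on Rip-B7xAI4 replicate 2 alone, on the scale as deposited. On this array 28 of 42 members, or 66.7%, lay above all AI4 arrays, against 19.7% of all genes and 34.1% of the brightest 25%. Evl and Vcl, or 4.76% of the members, lay below all AI4 arrays, where 32.4% of all genes did. The 28 hold, by definition, the 15 members with separate groups. After quantile normalization some of the 28, such as Pfn1, Cdc42 and Was, no longer lay above all AI4 arrays, while others, such as Plek and Vim, did. No count was made on that scale. Against the AI4 arrays, this array alone gave a median difference of 0.33, and 7 members were higher at an unadjusted p under 0.05, against 3.51% of all genes. That fit has a single Rip-B7xAI4 array, which is assumed to vary as the 3 AI4 arrays do. With the myeloid mean as a covariate the median was 0.30. In that fit 7 members were higher at an unadjusted p under 0.05 in limma, against 3.11% of all genes. For both fits the brightest 25%, which holds 38 of the 42 members, was not counted apart. The covariate fit also contains replicate 2, so it is no separate check.

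Actin itself was among the brightest genes. Actb, which encodes beta actin, was at 13.00, 12.81 and 12.72 in Rip-B7xAI4, against 12.67, 12.29 and 12.46 in AI4, so the groups just failed to touch. Its difference was 0.37 ± 0.18 (SE), with an unadjusted p = 0.0804 in limma. Of 6 genes for monomer binding and filament turnover, 0 reached an unadjusted p under 0.05. Pfn1 (profilin, which feeds monomers to growing ends) was at 12.07, 11.80 and 11.65 in Rip-B7xAI4, against 11.55, 11.07 and 11.46 in AI4. Tmsb4x, the main thymosin that sequesters monomers, was at 11.94, 11.87 and 12.25 in Rip-B7xAI4, against 11.56, 11.64 and 11.71 in AI4. Both genes had separate groups, with differences of 0.48 ± 0.21 (SE) and 0.38 ± 0.18 (SE). Its relative Tmsb10 differed by -0.08 ± 0.16 (SE), at 12.99 ± 0.09 (SD, n = 3) in Rip-B7xAI4 and 13.07 ± 0.11 (SD, n = 3) in AI4. Cfl1 (cofilin, which severs filaments), Cotl1 (coactosin-like protein) and Coro1a (coronin, which promotes turnover in leukocytes) differed by 0.31 ± 0.18, 0.38 ± 0.39 and 0.14 ± 0.19 (SE), and their groups overlapped.

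All 7 measured genes of the Arp2/3 complex, which nucleates branched filaments, had a positive difference as deposited. Their median was 0.27, against 0.38 over all members. After quantile normalization Arpc1a was at -0.056 and Arpc1b at -1e-04. Arpc4 was at 9.03, 9.02 and 8.48 in Rip-B7xAI4, against 7.89, 8.33 and 8.03 in AI4, and differed by 0.76 ± 0.23 (SE; unadjusted p = 0.0125, adjusted p = 0.478 in limma), or 0.94 with replicate 2 alone. Arpc5 was at 9.72, 9.65 and 9.61 in Rip-B7xAI4, against 9.56, 8.67 and 8.84 in AI4. It thus lay tightly together in Rip-B7xAI4, with the highest AI4 array just below, and differed by 0.64 ± 0.26 (SE). Actr3, 1 of the 2 actin-related subunits, was at 9.97, 9.01 and 9.30 in Rip-B7xAI4, against 9.07, 8.23 and 8.80 in AI4, with overlap. Arpc2 had separate groups and a difference of 0.27 ± 0.16 (SE). The alternative subunits Arpc1a and Arpc1b differed by 0.02 ± 0.31 and 0.21 ± 0.24, and Arpc5l by 0.17 ± 0.21 (SE). A second probe of Arpc1b gave 0.64 and separate groups, so the probes of this gene disagreed. The activators of the complex overlapped between groups: Was (the Wiskott-Aldrich syndrome protein) differed by 0.15 ± 0.22, its partner Wipf1 by 0.54 ± 0.38 and the WAVE protein gene Wasf2 by 0.33 ± 0.38 (SE).

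The genes for proteins at the growing end of the filament included Capg, with the largest difference after Plek, and Evl, the only member with separate groups in the other direction. Capg caps filament ends and was at 9.30, 8.47 and 7.55 in Rip-B7xAI4, against 6.83, 5.66 and 6.54 in AI4. The Rip-B7xAI4 arrays were widely spread yet stayed above those of AI4, with a difference of 2.10 ± 0.50 (SE; unadjusted p = 0.00424, adjusted p = 0.361 in limma). Replicate 2 alone gave 2.13. Of the arrays with high myeloid markers, replicate 1 had the highest Capg level of its group and replicate 3 the lowest. The part of myeloid RNA in the Capg level was not tested. Evl, an Ena/VASP protein that extends filaments, was at 9.0, 9.55 and 9.61 in Rip-B7xAI4, against 10.32, 10.03 and 10.23 in AI4. It was lower on every Rip-B7xAI4 array, with a difference of -0.81 ± 0.22 (SE; unadjusted p = 0.00857, adjusted p = 0.462 in limma), and the difference was -1.08 after quantile normalization. With Rip-B7xAI4 replicate 2 alone it was -0.65 and with the myeloid covariate -0.67, and neither reached an unadjusted p under 0.05. Its relative Vasp had the opposite sign, at 7.83, 8.94 and 8.43 in Rip-B7xAI4, against 7.69, 7.37 and 8.06 in AI4, with overlap and a difference of 0.69 ± 0.32 (SE). The capping protein subunits were also higher in the mean, Capzb at 9.87, 10.14 and 9.16 in Rip-B7xAI4 against 8.34, 9.43 and 9.06 in AI4, and Capza1 by 0.26 ± 0.17 (SE), both with overlap.

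**Figure D3:**
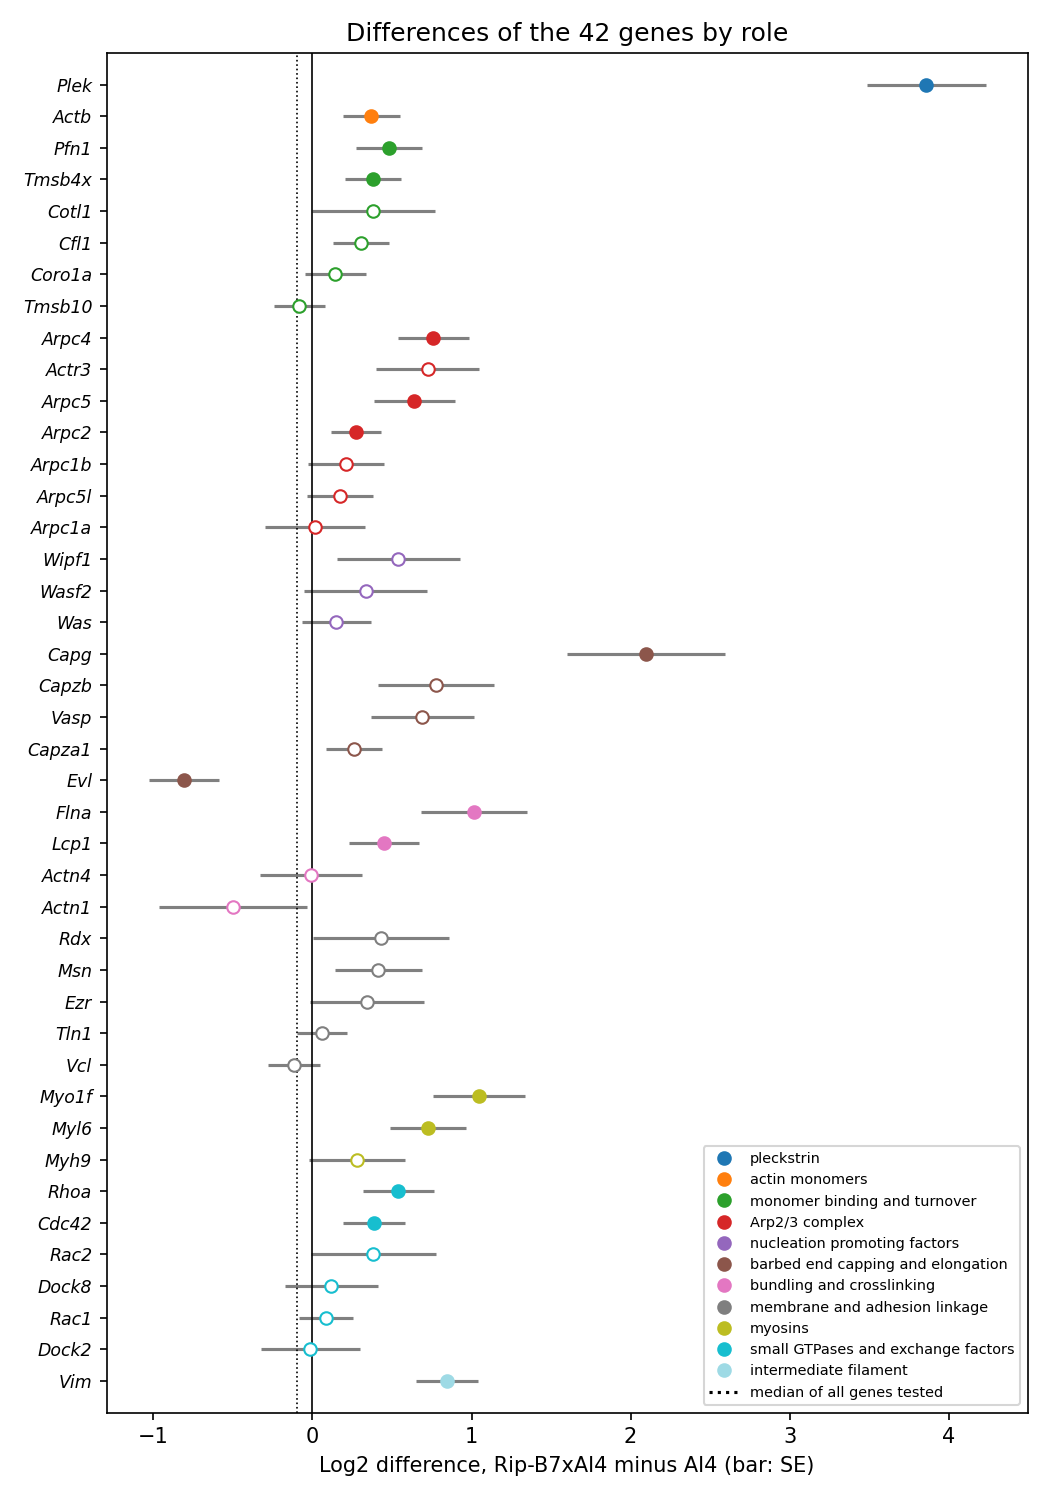
Log2 difference, Rip-B7xAI4 minus AI4, with its SE (horizontal axis) for the 42 members, grouped and coloured by role. Filled points have groups that do not overlap, and the dotted line is the median of all genes tested, -0.10. Plek at 3.86 and Capg at 2.10 lie farthest right, Evl at -0.81 farthest left, and most others between 0 and 1.

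Among the bundling and crosslinking proteins, Flna (filamin A, which joins filaments into networks) was at 8.83, 8.36 and 8.43 in Rip-B7xAI4, against 6.92, 7.50 and 8.15 in AI4. Its difference was 1.02 ± 0.33 (SE; unadjusted p = 0.0193 in limma), with the AI4 arrays spread widely, and it was 0.83 with replicate 2 alone. Flna, Msn, Was and Tmsb4x are X-linked in the mouse. Xist, which marks cells with 2 X chromosomes, was highest on replicate 2 of Rip-B7xAI4 and replicate 3 of AI4. It was at 6.37, 8.84 and 4.48 in Rip-B7xAI4 and 4.88, 4.99 and 9.21 in AI4. The Y-linked genes Eif2s3y and Kdm5d were lowest on replicate 2 of Rip-B7xAI4, at 5.79 and 5.48. The part of sex in the values of that array was not tested. Lcp1, the leukocyte plastin that bundles filaments, was at 11.62, 11.19 and 11.18 in Rip-B7xAI4, against 11.14, 10.61 and 10.88 in AI4, with barely separate groups. The alpha-actinin genes Actn1 and Actn4 differed by -0.50 ± 0.47 and -0.01 ± 0.32 (SE), with overlap. Single arrays moved Actn1 widely, to -0.99 without AI4 replicate 1 and -0.024 without AI4 replicate 3. Of the 5 linkers of filaments to membranes and integrins, 0 had separate groups. Moesin (Msn), ezrin (Ezr) and radixin (Rdx) differed by 0.41 ± 0.27, 0.34 ± 0.36 and 0.43 ± 0.43, and talin (Tln1) and vinculin (Vcl) by 0.06 ± 0.16 and -0.12 ± 0.16 (SE). Vcl was the dimmest member, at 5.51 ± 0.16 (SD, n = 3) in Rip-B7xAI4 and 5.63 ± 0.03 (SD, n = 3) in AI4, close to the limit of 5.47 below which genes were not tested.

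Myo1f, a membrane-binding myosin of leukocytes, was at 9.05, 8.83 and 8.03 in Rip-B7xAI4, against 7.58, 7.44 and 7.76 in AI4. The groups were separate and the difference was 1.05 ± 0.29 (SE; unadjusted p = 0.0091, adjusted p = 0.462 in limma). Its highest Rip-B7xAI4 array was replicate 1 and its lowest replicate 3, and replicate 2 alone gave 1.24. Myl6, a light chain of non-muscle myosin, was at 11.91, 11.69 and 11.65 in Rip-B7xAI4, against 10.56, 11.18 and 11.33 in AI4, with a difference of 0.73 ± 0.24 (SE), or 0.67 with replicate 2 alone. All 6 of its probes had separate groups, with differences of 0.73 to 1.09, but such probes of near-identical copies can share signal. The heavy chain gene Myh9 differed by 0.28 ± 0.30 (SE), and its second probe by -0.91, so its direction is uncertain. Vim encodes the intermediate filament protein vimentin. It was at 10.92, 10.47 and 10.41 in Rip-B7xAI4, against 9.85, 9.68 and 9.72 in AI4, well apart, with a difference of 0.85 ± 0.20 (SE; unadjusted p = 0.00377, adjusted p = 0.342 in limma), or 0.72 with replicate 2 alone.

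**Figure D4:**
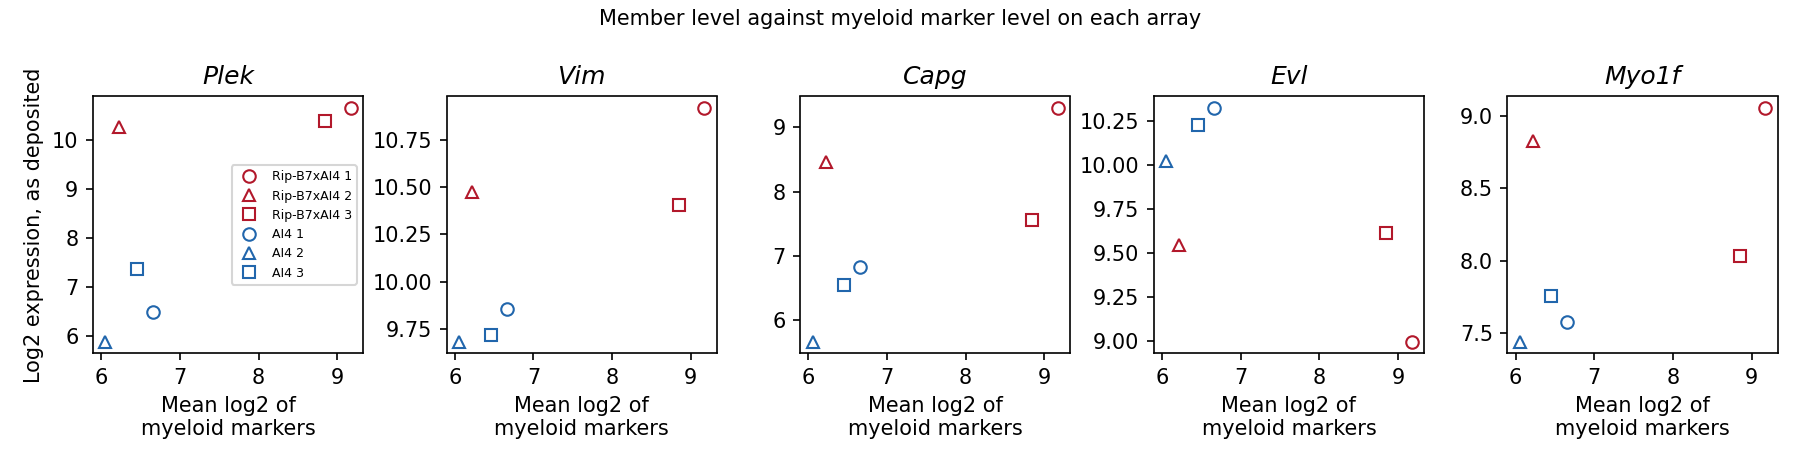
Log2 expression (vertical axes, each with its own range) of the 5 members with the smallest p against the mean log2 level of 17 myeloid markers (horizontal axis) on each array. Red marks are Rip-B7xAI4 and blue marks AI4. Rip-B7xAI4 replicate 2, with a marker mean of 6.22, lies at the left among the AI4 arrays. All 5 genes have separate groups, which fixes in advance that this array lies on the Rip-B7xAI4 side of every AI4 array.

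Differences were small for the GTPases that direct filament assembly. Rhoa, which promotes contractility, was at 10.83, 10.63 and 10.71 in Rip-B7xAI4, against 10.22, 9.80 and 10.53 in AI4. It differed by 0.54 ± 0.22 (SE; unadjusted p = 0.0468 in limma) with separate groups, while a second probe gave 0.28 with overlap. Cdc42, which acts on WASP, had separate groups and differed by 0.39 ± 0.20 (SE). Rac1 and the haematopoietic Rac2, which act on the WAVE complex, differed by 0.09 ± 0.17 and 0.38 ± 0.39, with overlap. The exchange factors Dock2, which activates Rac, and Dock8, which activates Cdc42, differed by -0.01 ± 0.31 and 0.12 ± 0.29 (SE).

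A further 134 actin pathway genes outside the set were looked up, and 118 were tested. The median difference was 0.12, with 72 positive and 46 negative, and 0 passed the adjusted limit. At an unadjusted p under 0.05, 19 were higher, or 16.1%, and 2 lower, beside 5.56% and 3.17% of all genes. With the myeloid mean as a covariate the higher count was 7, beside 3.11% of all genes, and the median difference was 0.055. With Rip-B7xAI4 replicate 2 alone against AI4, where 114 were tested, the median was 0.047, beside -0.10 over all genes. The part of myeloid RNA in the higher count was not tested. By function, 6 of 21 turnover and capping genes were among the higher ones, as were 4 of 14 myosins and 0 of 4 genes for serum response factor and its coactivators. Of the 12 with the smallest p, Dock5 (an exchange factor for Rac) had the smallest p, at 8.14, 7.49 and 8.27 in Rip-B7xAI4 and 6.42, 6.52 and 6.48 in AI4. It was lowest on replicate 2 within its group, with a difference of 1.49 ± 0.24 (SE) over all arrays and 1.02 with that array alone. Myo1e, another membrane-binding myosin, was at 7.82, 7.33 and 6.32 in Rip-B7xAI4 and 5.28, 5.32 and 5.28 in AI4. Its highest array was again replicate 1 and its lowest replicate 3. The difference was 1.86 ± 0.37 (SE) over all arrays and 2.04 with replicate 2 alone. Arhgap15, which switches Rac off, was lower, at 8.38, 8.94 and 8.80 in Rip-B7xAI4 against 9.74, 9.64 and 9.86 in AI4.

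The other 9 genes with the smallest p were all higher in the mean. Swap70 and the motor gene Myo5a differed by 1.11 ± 0.26 and 1.38 ± 0.34 (SE), or by 0.79 and 0.75 with the myeloid mean as a covariate. Dstn (destrin, a relative of cofilin) was at 7.48, 6.09 and 6.59 in Rip-B7xAI4, against 5.55, 4.66 and 5.25 in AI4, and differed by 1.57 ± 0.40 (SE), or 0.89 ± 0.40 with the myeloid mean as a covariate. The formin gene Diaph3 differed by 1.11 ± 0.30, the adaptor gene Skap2 by 1.49 ± 0.41 and the myosin light chain gene Myl12a by 0.90 ± 0.25 (SE). Cap1, which recycles monomers, differed by 0.73 ± 0.21, the integrin-linked kinase gene Ilk by 1.20 ± 0.36 and the capping protein gene Capza2 by 0.93 ± 0.30 (SE). With the covariate the difference was 0.35 for Capza2 and 0.68 for Skap2, against 0.54 for Cap1, 0.92 for Myl12a, 1.08 for Diaph3 and 1.34 for Ilk. With replicate 2 alone it was 0.31 for Capza2 and 0.52 for Skap2. Of these 9, Skap2 stood at 6.26 on Rip-B7xAI4 replicate 2 and at 7.68 and 7.75 on the others, against 5.62 to 5.92 in AI4. Srf, the transcription factor that drives many actin genes through the CArG box, differed by 0.15 ± 0.31 (SE), at 6.26, 7.19 and 6.18 in Rip-B7xAI4 against 6.43, 6.15 and 6.61 in AI4.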

How the data were processed

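Total RNA of AI4 CD8 T cells, sorted from pooled pancreata with an antibody to CD8 and a peptide tetramer per the labels' protocols, was hybridised to 6 single-colour Affymetrix arrays. The authors processed them with Affymetrix Expression Console, per the submitters' processing notes, with version and algorithm not given in these sources. They deposited 1 normalized value per probe, read as log2 from its range. Of 28325 probes, 21760 had 1 gene symbol in the platform annotation, 1621 several and 4944 none. The probe with the highest mean stood for each of 19929 genes, and the dimmest 30% by mean over the arrays stayed out of the tests, leaving 13950. Groups were taken from the titles and compared with limma 3.58.1 in R 4.3.3 (lmFit, eBayes, two-sided, Benjamini-Hochberg over all genes tested), and the fit was tested on simulated data. With 3 arrays per group, their number limits the precision.

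Members and lists were chosen with earlier results of these data known. All members are named. Array values are given for Plek, Actb and the next 15 by p, and 12 related genes are named by p. Plek2, Srf, Pf4, Cd8a, Cd8b1, Cd3e, Eif2s3y and Kdm5d were named after their values were seen. Alternatives were the replicate block, leaving out arrays, a myeloid covariate, quantile normalization, median centring, other filters, the mean of a gene's probes, trend with robust estimation, and array weights.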

Additional observations from a re-analysis of the deposited data

How the results depend on the processing

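Plek, Vim, Capg, Evl and Myo1f kept their direction under every alternative run. Of 858 single-gene values under alternatives, 825 kept their direction and their side of the adjusted limit, 1 newly passed it (Plek with array weights) and 32 changed sign, all for genes whose main difference was smaller than its SE. No member passed the adjusted limit under any other alternative run.

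Both groups use replicate numbers 1 to 3, but the deviations of same-numbered arrays from their group means correlated at -0.08, 0.06 and -0.22, so the numbers were not taken as pairs. The replicate block left 0 genes past the adjusted limit over all genes, 8 members higher and 1 lower at an unadjusted p under 0.05, and 1 related gene lower. With Rip-B7xAI4 replicate 2 alone, 28 members lay above all AI4 arrays as deposited, a count that fewer arrays make easier to reach. The median of the related genes was then 0.047. With the myeloid covariate 0 genes passed over all genes, 0 members were lower, and 7 related genes were higher and 1 lower. Quantile normalization gave 8 members with separate groups, a median of 0.17, and 12 related genes higher and 4 lower. Array weights gave 38 genes over all, 15 members higher, 1 member past the adjusted limit, and 22 related genes higher and 7 lower. Leaving out 1 array at a time gave 0 to 23 genes over all (23 without Rip-B7xAI4 replicate 2), 6 to 12 members higher (6 without Rip-B7xAI4 replicate 1), 1 to 2 lower, 16 to 23 with separate groups (23 without Rip-B7xAI4 replicate 3), and 11 to 23 related genes higher (11 without Rip-B7xAI4 replicate 1 and 12 without AI4 replicate 2) and 1 to 5 lower. The share of all genes that were higher, or had separate groups, was not counted for the replicate block, array weights or left-out arrays. Their member counts therefore have no background beside them. The causes were not tested.

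With 1 array left out at a time, the lowest and highest differences were -0.19 and 0.32 for Arpc1a, -0.0039 and 0.15 for Rac1, -0.11 and 0.35 for Dock8, -0.30 and 0.13 for Dock2, -0.24 and 0.24 for Actn4, -0.11 and 0.56 for Wasf2, -0.0042 and 0.46 for Myh9 and -0.033 and 0.61 for Rac2. Without a sign change they were -0.99 and -0.024 for Actn1, 0.05 and 0.63 for Ezr, 0.05 and 0.71 for Rdx and 0.14 and 0.80 for Cotl1. With Rip-B7xAI4 replicate 2 alone Actn4 was 0.17 and Tln1 -0.021, and with the covariate they were 0.17 and -0.0085. After quantile normalization Coro1a was -0.11, Arpc1a -0.056, Arpc1b -1e-04, Was -0.003, Tln1 -0.15, Rac1 -0.14 and Dock8 -0.088. Median centring put Actn4 at 0.058 and Dock2 at 0.054, the mean of probes put Myh9 at -0.31, and array weights put Wasf2 at -0.052 and Rac1 at -0.021. A pseudocount was not tried, because the values were already on the log2 scale.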
